A study of Mus musculus with 38 samples.

Results

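LAP2B over background in wild-type (WT) epiblast-like cells (EpiLCs) was described from 6 of the 38 libraries of the series. They are the 3 WT EpiLC libraries made with an antibody to LAP2 and the 3 WT EpiLC libraries made with the control antibody, named IGG. All 6 were chosen by their labels and the table they stand in, with no use of measured values. Gene tables held 78202 genes and the tables of transposable elements (TEs) 3793386 copies in 1241 families, and 36 libraries of the series had columns in them. A further 2 samples were not used here.

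The cells were mouse embryonic stem cells of WT genotype, taken from naive culture into N2B27 medium with 20 ng/mL FGF and 12 ng/mL activin A, and labelled EpiLC. In each replicate, 200000 cells were used for CUT&RUN, in which a nuclease bound to an antibody cuts and releases the DNA near the antibody's target. For LAP2B the antibody was raised against a stretch that is shared in part with LAP2A, a form of the protein found in the nucleoplasm. For IGG a rabbit antibody to mouse immunoglobulin took its place. Both groups carry the same genotype, stage and medium, and no agent sets them apart. WT is here 1 cell line, derived from a littermate of the lamin knockout line, and the study's karyotypes found loss of Y and gain of chromosomes 6 and 8 in part of its cells. Nothing in the labels says that the replicates were separate cultures, so that spreads and p-values measure differences between libraries of 1 line.

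The inner nuclear membrane and the meshwork of lamins beneath it hold a large share of the silent genome at the rim of the nucleus, in stretches called lamina-associated domains. LAP2B is a membrane protein made by the gene Tmpo; it binds B-type lamins and chromatin factors. The study did not use it in EpiLCs in place of a lamin to mark these domains. Its reason was that LAP2B signal in WT EpiLCs lay both inside and outside such domains, judged against lamin B1 (LMNB1). The level is therefore given here as LAP2B signal and not as lamina contact. Such domains are known to be rich in A and T, poor in active genes and rich in LINE elements, and to hold many tissue-restricted gene families, while gene-dense and SINE-rich chromatin lies further inside. EpiLCs stand for the early post-implantation epiblast, which has left naive pluripotency and is preparing to form the germ layers. The assay reads DNA and no transcripts, so marker genes can describe coverage here but cannot check the cell type.

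A deposited gene value is the spike-in scaled signal summed over the 1 kb bins the gene touches, and a level below is that value divided by the median gene of the same library. A level of 1 thus equals the median gene, long genes have high levels, and per-bin levels are given where genes are compared with each other. A difference is the log2 of LAP2B over IGG for the same gene, with 0.1 added to both levels, so that low genes are understated. Genes that overlap share bins and hence reads, and reads of near-identical gene copies may be split between them.

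The gene tables held 18713692 to 29685076 reads per LAP2B library and 14058614 to 36280278 per IGG library, with 43 to 108 reads on a gene of median coverage. These sums count a read again for each gene or bin that shares it, and leave out reads outside genes. On the spike-in scale, the mean gene value was 12.4 ± 2.45 in LAP2B and 4.91 ± 2.71 in IGG (SD, n = 3), so that the IGG mean was 39.5% of the LAP2B mean. Replicates 1, 2 and 3 had means of 14.0, 9.59 and 13.7 in LAP2B and 3.62, 8.03 and 3.08 in IGG. In each group the library with most reads over genes, LAP2B replicate 2 and IGG replicate 3, had the lowest mean. The part of depth in these means was not tested. The study's methods give the arbitrary constant of the spike-in scale for LAP2 but none for IGG. Comparisons of LAP2B with IGG on that scale thus rest on a constant that is not stated. Spearman correlation of per-bin levels across 70312 genes was 0.52 to 0.56 between LAP2B libraries, 0.61 to 0.71 between IGG libraries and 0.21 to 0.45 between a LAP2B and an IGG library. Genes are not independent replicates, and these values carry no test. LAP2B replicate 1 was the library least like IGG, at 0.21 to 0.24. Median levels over chromosome 8 were 1.42 ± 0.0206 in LAP2B and 1.47 ± 0.027 in IGG, and over chromosome X 0.538 ± 0.0312 and 0.452 ± 0.017 (SD, n = 3), so that the high level of chromosome 8 was seen in both groups.

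The first comparison asked which genes carried more or less LAP2B than background, relative to the median gene. Of 70381 genes tested, 8064 (11.5%) were higher in LAP2B and 5114 (7.27%) lower at an adjusted p under 0.05 (limma, Benjamini-Hochberg over all genes tested). The 3 LAP2B libraries did not overlap the 3 IGG libraries in 24655 genes (35.0%), among them 7656 of the higher and 4729 of the lower genes. The median difference was -0.03, with quartiles of -0.30 and 0.32. Large differences were mostly upward, with 1351 higher genes above 1 and 226 lower genes below -1 on the log2 scale. Calls of at least 1.5-fold numbered 5416 higher and 1813 lower. With no filter on low genes, 1844 genes were higher and 747 lower.

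The direction of a gene is relative to its library. On the spike-in scale, with the limit given above, the median gene was 1.14 log2 units higher in LAP2B, 35723 genes were higher and 0 lower. When each library was divided by its mean gene, the median difference was -0.09, and 6648 genes were higher and 10555 lower. That setting also added 0.1 to smaller levels, since the mean gene value was above the median one (14.0 against 3.05 in LAP2B replicate 1). Low genes are thus understated more than on the median scale, here and wherever libraries are divided by their mean gene below. Without LAP2B replicate 1 the counts were 4659 higher and 1948 lower, and without IGG replicate 1, 2 or 3 the lower genes numbered 3102, 2974 and 3252.

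The named genes were, by rule, the 10 protein-coding genes of at least 10 bins with the highest and the 10 with the lowest difference among those called with no overlap of libraries, at most 1 per Mb. Those with more LAP2B came first. Or6c2b (ENSMUSG00000042801; GRCm39 chr10:128944821-128953730), an olfactory receptor, had levels of 3.88, 3.48 and 3.54 in LAP2B replicates 1, 2 and 3 against 0.956, 1.21 and 1.26 in IGG, a difference of 1.59 (SE 0.20, limma adjusted p = 9e-08). Or5h22 (ENSMUSG00000064006; chr16:58887503-58898368), another olfactory receptor, had 4.13, 3.30 and 2.62 against 1.12, 0.837 and 1.36, a difference of 1.52. Ambn (ENSMUSG00000029288; chr5:88603850-88616390) encodes ameloblastin of the enamel matrix and had 5.65, 4.19 and 3.98 against 1.51, 1.58 and 1.48, a difference of 1.52. In each of the 3 genes every LAP2B library lay above every IGG library, as the rule of choice required.

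Amelx, the gene of the main enamel protein, lies on chromosome X and had levels of 2.3, 1.63 and 1.73 in LAP2B against 0.765, 0.419 and 0.806 in IGG, a difference of 1.41 (SE 0.26). Ugt2b38, a glucuronosyltransferase of steroid and drug metabolism, had 5.12, 4.14 and 4.05 against 1.49, 1.30 and 1.85, a difference of 1.47. Cr2, the complement receptor of B cells, is the longest of these genes at 41 bins; its levels were 19.7, 16.7 and 16.7 against 6.63, 7.23 and 7.65. Its difference of 1.29 (SE 0.12, limma adjusted p = 4.43e-10) had the smallest error of these 10 genes. The others were Or4k47 (1.42), the vomeronasal receptor Vmn1r28 (1.38), the lectin-like receptor Klri2 (1.37) and the interferon-inducible Ifi207 (1.31). Of these 10 genes, 9 were among the LMNB1-richest genes, by a ranking that is explained below, and Amelx was in the class after it.

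Genes with less LAP2B are of mixed function. Taco1 (ENSMUSG00000001983; chr11:105956874-105965630), a translational activator of a mitochondrial cytochrome oxidase subunit, had levels of 2.88, 3.76 and 4.70 in LAP2B against 16.4, 6.63 and 8.16 in IGG, a difference of -1.35 (SE 0.18, limma adjusted p = 3.61e-07). IGG replicate 1 stood far above the other two over Taco1, and without it the difference was -0.97. Aqp2 (ENSMUSG00000023013; chr15:99476936-99485016), the water channel of the kidney collecting duct, had 1.12, 1.18 and 0.964 against 2.84, 2.23 and 1.94, a difference of -1.02. Nat8f2 (ENSMUSG00000033634; chr6:85842404-85872422), an acetyltransferase-like gene, had 0.167, 0.845 and 0.732 against 1.13, 1.14 and 1.05, also -1.02, but LAP2B replicate 1 set much of it. Its difference was -0.44 without that library, where the adjusted p was 0.357, and the call was also lost without IGG replicate 1.

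Dlg4, the postsynaptic scaffold PSD-95, had levels of 4.70, 6.19 and 5.73 in LAP2B against 11.9, 9.33 and 11.2 in IGG, a difference of -0.95 (SE 0.14). Nes, the intermediate filament nestin of neural progenitors, had 1.88, 2.25 and 1.70 against 3.90, 4.14 and 3.35, a difference of -0.93. Fahd1 (-0.97), Pld6 (-0.94), Cabp7 (-0.93), Prrg2 (-0.92) and the sperm ion channel subunit Catsper4 (-0.92) completed the list, each still called without any 1 library. Taco1 was the only gene of these 10 in the class with most LMNB1.

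**Figure D1:**
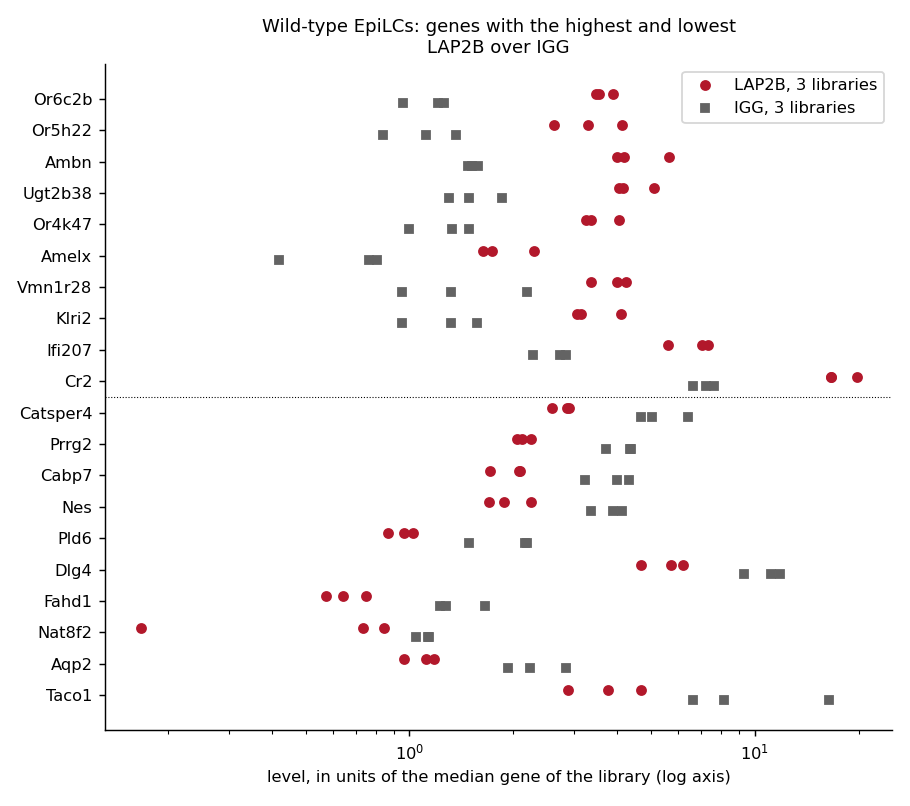
Levels of the 20 named genes in each WT EpiLC library, in units of the library's median gene on a log axis, with LAP2B as red circles and IGG as grey squares. Over Or6c2b the LAP2B libraries sit at 3.48 to 3.88 and the IGG libraries at 0.956 to 1.26, while over Taco1 IGG replicate 1 sits at 16.4, far to the right of the other libraries.

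The 250 bases before the annotated start of the 3 most enriched and the 3 most depleted genes are shown because they differ in a sequence feature that the choice did not use. Capitals mark CG, the pair of letters that is methylated in mammals; it reads the same on both strands. Sequences were read from the GRCm39 reference genome at GENCODE gene starts, in the direction of the gene, at chr10:128953731-128953980 (minus strand), chr16:58898369-58898618 (minus) and chr5:88603600-88603849 (plus) for the enriched genes. The depleted genes are at chr11:105956624-105956873 (plus), chr15:99476686-99476935 (plus) and chr6:85872423-85872672 (minus).
Or6c2b: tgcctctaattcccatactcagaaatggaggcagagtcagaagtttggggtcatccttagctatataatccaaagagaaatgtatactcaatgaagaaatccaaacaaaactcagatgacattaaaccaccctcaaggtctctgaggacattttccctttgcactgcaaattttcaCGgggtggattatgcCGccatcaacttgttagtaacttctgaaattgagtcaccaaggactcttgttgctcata
Or5h22: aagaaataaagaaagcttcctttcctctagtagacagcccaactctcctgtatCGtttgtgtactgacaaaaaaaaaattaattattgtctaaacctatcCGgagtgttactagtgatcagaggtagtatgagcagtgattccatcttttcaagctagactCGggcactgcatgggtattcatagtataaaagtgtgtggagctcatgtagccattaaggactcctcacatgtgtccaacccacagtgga
Ambn: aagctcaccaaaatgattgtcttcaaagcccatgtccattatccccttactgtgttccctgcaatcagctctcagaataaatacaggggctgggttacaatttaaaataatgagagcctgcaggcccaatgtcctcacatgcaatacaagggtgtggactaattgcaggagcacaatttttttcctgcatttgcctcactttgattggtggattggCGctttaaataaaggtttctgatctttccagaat
Taco1: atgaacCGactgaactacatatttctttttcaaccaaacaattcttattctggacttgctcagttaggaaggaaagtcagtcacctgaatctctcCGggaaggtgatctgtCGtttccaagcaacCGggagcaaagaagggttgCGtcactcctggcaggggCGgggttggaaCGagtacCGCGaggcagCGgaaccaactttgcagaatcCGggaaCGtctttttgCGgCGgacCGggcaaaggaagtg
Aqp2: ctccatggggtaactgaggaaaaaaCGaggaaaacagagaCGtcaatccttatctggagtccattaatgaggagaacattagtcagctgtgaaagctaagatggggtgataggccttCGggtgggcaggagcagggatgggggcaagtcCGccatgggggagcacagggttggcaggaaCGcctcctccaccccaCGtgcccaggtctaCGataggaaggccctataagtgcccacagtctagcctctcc
Nat8f2: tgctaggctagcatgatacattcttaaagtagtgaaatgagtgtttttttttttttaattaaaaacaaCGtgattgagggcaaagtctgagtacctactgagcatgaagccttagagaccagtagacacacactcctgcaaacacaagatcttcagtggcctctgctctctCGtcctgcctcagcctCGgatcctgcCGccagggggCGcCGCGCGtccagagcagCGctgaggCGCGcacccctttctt

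The enriched promoters held 2, 3 and 1 CG and the depleted ones 15, 7 and 11. Promoters of the other named genes overlapped, from 0 in Or4k47 to 7 in Cr2 for more LAP2B. For less LAP2B they ran from 1 in Catsper4 to 20 in Fahd1. Among protein-coding genes, the 2946 with more LAP2B had a median of 2 CG and 17.9% had none. The 3132 with less LAP2B had a median of 10, and 1.98% had none. The median over all 20852 such genes was 6, with 7.70% lacking CG. These counts describe letters and not methylation, which was not measured.

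LMNB1 was measured in 3 further WT EpiLC libraries with another antibody and served to rank genes, since it shares no library with the comparison. Genes were parted into 4 equal classes of 17578 by mean LMNB1 per bin. In class 4, with most LMNB1, the median level per bin was 1.42, 1.23 and 1.26 in LAP2B replicates 1, 2 and 3 against 0.918, 0.914 and 0.948 in IGG. In class 1, with least, it was 0.739, 0.830 and 0.796 against 0.979, 0.971 and 0.978. Relative to the median of its library, LAP2B thus stood above IGG in every library over the LMNB1-rich genes. On the same relative scale it stood below IGG in every library over the LMNB1-poor ones. On the spike-in scale 0 genes were lower in LAP2B.

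The median difference rose over the classes from -0.26 and -0.18 to 0.06 and 0.44. Genes with more LAP2B made up 1.51%, 1.87%, 10.4% and 32.0% of the classes and genes with less 15.8%, 9.42%, 3.12% and 0.72%. Class 4 held 69.8% of all genes with more LAP2B, and class 1 held 54.3% of those with less. The ranking matters here, since classes by LMNB1 not divided by bins follow gene size and had medians of -0.06, -0.02, -0.11 and 0.06.

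AT content of the gene moved with LMNB1 and was ranked in the same way. From the least to the most AT-rich of 4 equal classes, median differences were -0.28, -0.17, 0.01 and 0.38, and genes with more LAP2B made up 33.7% of the last. Genes with more LAP2B had a median AT content of 60.5%, genes with less 50.8% and all genes 54.7%. Within each AT class the median still rose from LMNB1 class 1 to class 4, and within each LMNB1 class it rose with AT content. Genes lowest in both had a median of -0.36, with 0.0862% higher and 22.3% lower, and genes highest in both had 0.60, with 54.1% higher. The part of base composition in the recovery of DNA by either antibody was not tested.

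**Figure D2:**
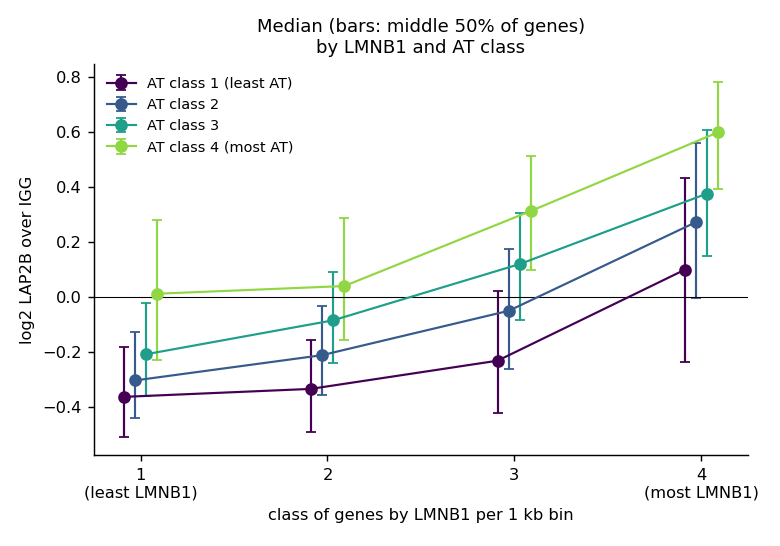
Median difference (log2 LAP2B over IGG) of genes in 4 classes of LMNB1 per bin, drawn separately for 4 classes of AT content, with bars from the lower to the upper quartile of genes. Medians climb from -0.36 at the lower left, for genes poor in both, to 0.60 at the upper right, for genes rich in both.

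A minority of called genes stood against the ranking. Among genes with more LAP2B, 594 lay in LMNB1 classes 1 and 2; 294 of them (49.5%) were on chromosome X and 16 on chromosome Y. Their median AT content was 60.2% and their median size 49 bins. The study gives the line as XY, and the ranking by LMNB1 per bin was not corrected for copy number. Median per-bin levels in IGG were 0.452 on chromosome X and 0.254 on chromosome Y. The part of copy number in the class of these genes was not tested. Among genes with less LAP2B, 127 lay in class 4, of which 38 were protein-coding, with a median of 3 bins and 47.3% AT. Taco1 was one of them, and so was Klf2, described below.

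The same contrasts were then taken as 1 value per library, as the log2 ratio of mean levels between groups of genes or TE families. Levels were per bin for genes and means over copies for TE families, which are not divided by length. The ratio of the LMNB1-rich to the LMNB1-poor class was 1.08, 0.739 and 0.845 in LAP2B replicates 1, 2 and 3 and 0.274, 0.187 and 0.232 in IGG, a difference of 0.66. That of the AT-rich to the AT-poor class was -0.103, -0.281 and -0.508 against -1.16, -0.818 and -0.733, a difference of 0.61. Chromosome X over autosomes gave -0.824, -0.921 and -0.910 against -1.22, -1.17 and -1.13, a difference of 0.29. Every LAP2B library lay above every IGG library in each of these ratios.

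LINE over SINE families gave 0.424, 0.309 and 0.315 in LAP2B against 0.00145, 0.0593 and 0.0802 in IGG, a difference of 0.30. Young L1Md LINE-1 over B1 SINE families gave 1.34, 1.12 and 1.25 against 0.796, 0.804 and 0.796, a difference of 0.44. Each of the 5 contrasts had a two-sided exact permutation p of 0.1 (adjusted p 0.1 over the 5), which is the smallest that 3 libraries against 3 allow. None can therefore pass the threshold, and what they show is that libraries did not overlap. Ratios within a library do not depend on how the library is scaled.

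**Figure D3:**
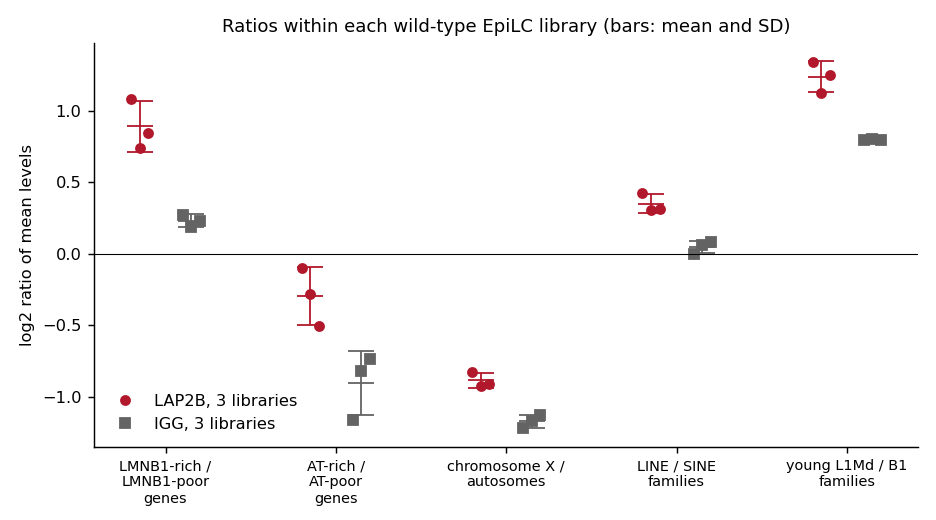
Log2 ratios of mean levels within each library for 5 contrasts, with LAP2B as red circles, IGG as grey squares, and bars for mean and SD of 3 libraries. In all 5 the LAP2B points lie above the IGG points, from 0.739 to 1.08 against 0.187 to 0.274 for LMNB1-rich over LMNB1-poor genes.

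Chromosomes differed in their share of calls. On chromosome 11, 247 of 4275 genes were higher and 621 lower, with a median difference of -0.24. Chromosome 19 had the next lowest median, -0.15, with 87 higher and 190 lower of 1872. Chromosome X stood at the other end, with 362 higher and 21 lower of 2144 and a median of 0.23, and on chromosome 3 there were 562 higher and 116 lower genes of 3751. Genes of 100 or more bins were called higher more often than others, at 41.7%. Of these genes 12.2% were lower, against 15.6% of those of 30 to 99 bins. The median gene with more LAP2B touched 26 bins against 6 over all genes. Unprocessed pseudogenes, which arise by duplication, had 197 higher and 6 lower of 1279, while protein-coding genes were even, with 2947 higher and 3132 lower of 20856.

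Calls ran in blocks along chromosomes. Of 1342 windows of 2 Mb with at least 5 tested genes, 751 held higher and no lower genes, 307 lower and no higher genes, 218 both and 66 none. The highest median, 1.17, was that of chr10:130000001-132000000, where 11 of 11 genes were higher; among them were Vmn2r84, Vmn2r85, Vmn2r86 and Vmn2r87, the lymphocyte gene Tespa1, the neuronal factor Neurod4 and Or9k2b. Other windows with high medians were chr3:158000001-160000000 (12 of 17 higher, median 0.96) and chr14:124000001-126000000 (9 of 13, 0.90), which holds Fgf14 and Itgbl1. The lowest median, -0.46, was that of chr2:30000001-32000000, where 46 of 97 genes were lower and 0 higher. It was followed by chr4:124000001-126000000 (30 of 89 lower) and chr4:138000001-140000000 (29 of 92 lower). Neighbouring genes of a window share bins and domains and are not separate observations.

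Gene families were then counted against the 11.5% of all genes higher and 7.27% lower. Among protein-coding genes alone the shares were 14.13% higher and 15.02% lower, with a median difference of -0.146. Chemosensory receptors, the sensors of nose and tongue, had differences of LAP2B over IGG with medians above 0. Of 1358 olfactory receptor genes, 540 were higher and 4 lower, with a median difference of 0.62. Their median level per bin was 1.23, 1.04 and 0.988 in LAP2B replicates 1, 2 and 3 against 0.637, 0.706 and 0.726 in IGG, with no overlap. Higher members numbered 260 without LAP2B replicate 1 and 355 without IGG replicate 1, and their median stayed at 0.54 or above without any 1 library. With libraries divided by their mean gene the median was 0.38, with 449 higher and 11 lower.

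Olfactory receptor genes differed among themselves by position. Of 1019 in LMNB1 class 4, 505 were higher, and of 86 in class 1 it was 1, with 4 lower. On chromosome 10, 53 of 72 were higher, on chromosome 2 it was 170 of 355, on chromosome 19 it was 8 of 82 and on chromosome 4 it was 0 of 30, with 1 lower. The highest member was Or5g23, with levels of 1.95, 1.63 and 1.68 against 0.426, 0.186 and 0.889, a difference of 1.8. The lowest was Or13e8 on chromosome 4, with 0.750, 0.607 and 1.05 against 1.16, 1.84 and 1.84, a difference of -0.93, which lost its call without any of 3 libraries. Its AT content was 52.1%, against 63.9% for Or5g23.

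Vomeronasal type 2 receptors, which detect peptide pheromones, were higher in 103 of 113 genes and lower in 0, with a median of 0.72. Of those in LMNB1 class 4, 88 of 92 were higher. Their highest member was Vmn2r15 at 1.28, with levels of 2.92, 3.26 and 2.93 in LAP2B against 1.22, 0.767 and 1.77 in IGG. Vomeronasal type 1 receptors were higher in 59 of 150 genes (30 without LAP2B replicate 1) and bitter taste receptors in 10 of 39 (2 without LAP2B replicate 1, 5 and 6 without IGG replicates 1 and 2), with 0 lower in both and medians of 0.45 and 0.60, which were 0.29 each with libraries divided by their mean gene. These families consist of similar genes in clusters, so that members are not separate observations.

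Immune families differed in their share of calls. Killer cell lectin-like receptors of natural killer cells were higher in 26 of 31 genes, with a median of 0.81 and per-bin levels of 1.38, 1.13 and 1.18 against 0.705, 0.686 and 0.733. Immunoglobulin V segments were higher in 76 of 327, 19 without LAP2B replicate 1 and 37 without IGG replicate 1, with a median of 0.59. T cell receptor V segments had a median of 0.30 and 5 higher genes of 157. The share called differed with gene size, with 3.26% of all genes of 1 bin and 5.43% of those of 2 to 3 bins higher. Defensins had 9 higher and 1 lower of 71, a share near that of all genes. The T cell receptor count was 0 without LAP2B replicate 1, and the defensin count 2 without IGG replicate 1 and 3 without LAP2B replicate 1. With libraries divided by their mean gene, medians were 0.29 for immunoglobulin and 0.12 for T cell receptor segments and 0.16 for defensins. The immunoglobulin count was also 49 without LAP2B replicate 2 and 50 without IGG replicate 2.

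Families of the liver and of reproduction were less uniform. Cyp2, Cyp3 and Cyp4 genes of drug metabolism were higher in 41 of 109 and lower in 1, led by Cyp3a59 with levels of 14.7, 10.4 and 11.1 against 4.88, 6.35 and 5.83, a difference of 1.07. The Cyp genes had 26 higher without LAP2B replicate 1, and 10 lower with libraries divided by their mean gene. UDP-glucuronosyltransferases were higher in 11 of 20 and lower in 4, and the lower calls fell to 0 without LAP2B replicate 1 or 3 or IGG replicate 2 or 3, while they were 5 without LAP2B replicate 2. Pramel genes, expressed in the germ line and early embryo, were higher in 24 of 64 (14 without LAP2B replicate 1 or IGG replicate 1). Serpin A and B genes were higher in 14 of 58 and major urinary proteins in 4 of 37, the latter near the 11.5% of all genes. Without LAP2B replicate 1 these were 9 and 0, and without IGG replicate 1 they were 9 and 1, while the urinary proteins had 1 with libraries divided by their mean gene and 2 without LAP2B replicate 3 or IGG replicate 3. Rhox genes, a homeobox cluster on chromosome X, had 0 calls in either direction and a median of 0.07 (-0.02 with libraries divided by their mean gene), against 0.23 over genes of that chromosome. Their libraries did not overlap in 6 of 41 genes, against 35.0% of all genes.

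Very long neuronal genes, which encode adhesion and synaptic proteins, had the highest share of calls. Of 35, 33 were higher and 0 lower, with a median of 0.67, and 29 to 33 were higher without any 1 library. Among all genes of 100 or more bins, 41.7% were higher and 12.2% lower. Ntm, which encodes neurotrimin and touches 969 bins, had the lowest difference of the list, with levels of 158, 165 and 150 against 130, 154 and 150, a difference of 0.13 (adjusted p = 0.362). It lay in LMNB1 class 2 with an AT content of 57.3%. Nrg1 was counted under 2 identifiers.

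Large mixed families split in both directions. The lower share of all protein-coding genes, 15.02%, was close to that of solute carriers. It was above that of zinc finger genes and below that of potassium channel genes. Potassium channel genes had 22 higher and 20 lower of 99; the highest was Kcna4, with levels of 3.63, 3.81 and 3.07 against 1.62, 1.79 and 1.61. Solute carriers had 45 higher and 60 lower of 382, and their highest member, the choline transporter Slc5a7, had 7.6, 7.44 and 7.77 against 3.81, 3.86 and 3.81, a difference of 0.97. Zinc finger genes named Zfp, many of which encode repressors of transposons, had 55 higher and 47 lower of 405. Of the 86 Zfp genes in LMNB1 class 4, 46 were higher, among them Zfp947 with a difference of 1.21. Lower calls in these 3 families, in the same order, numbered 8, 24 and 16 without LAP2B replicate 1, 12, 34 and 23 without IGG replicate 1, 12, 38 and 25 without IGG replicate 2, 17, 36 and 30 without IGG replicate 3, and 37, 133 and 105 when libraries were divided by their mean gene.

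Developmental and housekeeping families had differences of LAP2B over IGG with medians below 0, as had protein-coding genes as a whole (-0.146). The lower shares of Hox genes (15.38%) and proteasome subunits (15.79%) were close to the 15.02% of protein-coding genes. Wnt ligands, secreted signals that pattern the embryo, were lower in 9 of 19 and higher in 0, with a median of -0.32. Wnt10b had levels of 1.28, 2.10 and 2.18 in LAP2B against 3.29, 2.74 and 3.23 in IGG, a difference of -0.74. Hox genes, which set position along the body axis, were lower in 6 of 39 and higher in 0, with a median of -0.37 and per-bin levels of 0.985, 1.09 and 1.18 against 1.64, 1.36 and 1.30. Hoxb5 was the lowest, with 0.617, 0.417 and 0.768 against 1.21, 1.28 and 1.24. Without LAP2B replicate 1 the counts were 1 Wnt gene and 1 Hox gene, without each IGG replicate 5 Wnt genes, with libraries divided by their mean gene 11 Hox genes, and the calls of Wnt10b and Hoxb5 were lost without LAP2B replicates 1 and 2, respectively.

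Clustered protocadherins, which give neurons their surface identity, were lower in 20 of 59 and higher in 7. Of 30 in LMNB1 class 2, 20 were lower. The lower calls were 3 without LAP2B replicate 1 and 0 without IGG replicate 3, and the higher calls 1 without IGG replicate 1 and 3 with libraries divided by their mean gene. Many of these genes overlap each other and hold the same bins.

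Ribosomal protein genes had 7 lower and 2 higher of 89, with a median of -0.35. Rpl10l, a testis-specific copy in LMNB1 class 4, was the highest, with levels of 1.03, 1.02 and 1.18 against 0.441, 0.326 and 0.426, a difference of 1.25. Replication-dependent histone genes, of which 23 were tested, had 2 lower, with H4c1 lowest at -1.34; its levels were 0.117, 0.738 and 0.607 against 1.26, 1.26 and 1.04, but without LAP2B replicate 1 it was -0.74 and not called. Proteasome subunits had 6 lower of 38, complex I subunits 2 of 36 and keratins 3 of 52, with 0 higher in each (the proteasome count was 1 to 3 without any 1 library), and keratin-associated proteins had 5 higher and 2 lower of 98. MicroRNA genes had 18 higher and 23 lower of 944, while of all genes of 1 bin 3.26% were higher and 0.894% lower. With libraries divided by their mean gene, lower calls were 19 for ribosomal, 16 for proteasome, 5 for complex I, 7 for keratin, 4 for keratin-associated, 4 for histone and 46 for microRNA genes. There were 7 higher and 6 lower microRNA genes, 2 higher and 0 lower keratin-associated genes and 0 lower keratin, complex I or histone genes without LAP2B replicate 1, and lower microRNA genes numbered 9 without IGG replicate 1 or 2. Higher microRNA genes numbered 11 without LAP2B replicate 2 and 12 without IGG replicate 1. Without IGG replicate 3, 1 keratin gene and 0 complex I genes were lower, and ribosomal protein genes had 4 lower without LAP2B replicate 1 or IGG replicate 1 or 2.

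**Figure D4:**
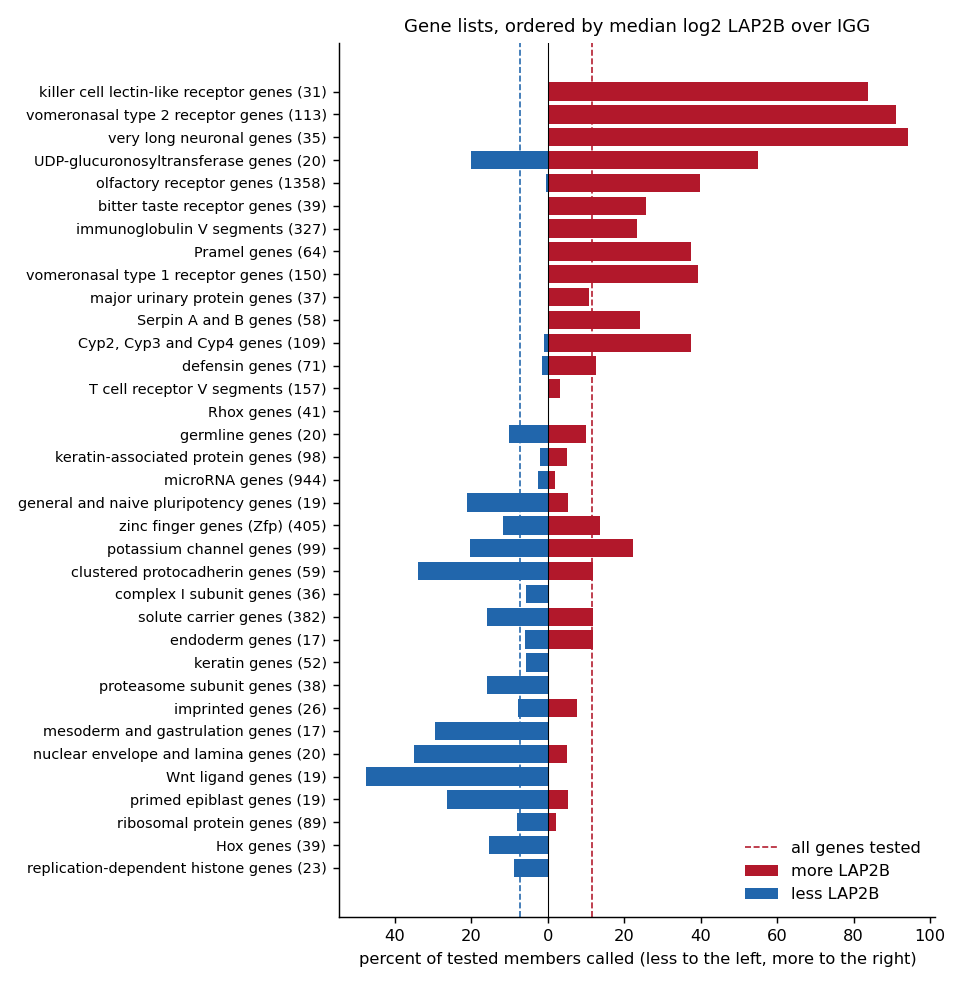
Percent of tested members of each gene list with more LAP2B (red, to the right) and less LAP2B (blue, to the left), lists ordered by median difference with the number tested in parentheses. Dashed lines mark the 11.5% and 7.27% of all genes. Among protein-coding genes alone the shares were 14.13% and 15.02%. Vomeronasal type 2 receptors, killer cell lectin-like receptors and very long neuronal genes reach furthest to the right. Wnt ligands, with 9 of 19, reach furthest to the left.

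Genes of pluripotency and of the first lineages were counted because naive and primed cells differ in them. The shares to set beside these lists and those below are 14.13% higher and 15.02% lower, over all protein-coding genes. Of 19 general and naive pluripotency genes, 4 were lower and 1 higher. Pou5f1, which encodes OCT4, had levels of 1.62, 1.68 and 2.11 in LAP2B against 3.21, 2.40 and 2.47 in IGG, a difference of -0.55 (limma adjusted p = 0.0439). Klf2 had 1.27, 1.70 and 1.61 against 2.69, 2.81 and 2.51, a difference of -0.78, and Esrrb, of 162 bins, had -0.33. Nanog had 3.90, 3.19 and 3.45 against 3.09, 3.19 and 3.41, a difference of 0.12 (adjusted p = 0.671), and its libraries overlapped. Nr0b1, which encodes DAX1 on chromosome X, was the higher gene at 0.75 (adjusted p = 0.0446). Klf2 kept its call without any 1 library, whereas Pou5f1 and Esrrb each lost it without any of 4 libraries and Nr0b1 without any of the 6. Without LAP2B replicate 1, 1 gene of the list was lower.

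Primed epiblast genes had 5 lower and 1 higher of 19, with a median of -0.33 and per-bin levels of 0.928, 0.956 and 1.03 against 1.53, 1.27 and 1.32. Otx2, a homeobox factor of the epiblast and forebrain, had levels of 2.92, 4.14 and 2.73 against 5.56, 4.65 and 4.19, a difference of -0.56. The DNA methyltransferase gene Dnmt3a had 23.3, 21.7 and 25.6 against 30.87, 30.58 and 29.98, a difference of -0.38, and Tead2 had -0.53. The cadherin gene Cdh2 was the higher one at 0.35, and Fgf5, a marker of the primed state, had 0.23 (adjusted p = 0.27). Of the called genes of this list named here, Nes alone kept its call without any 1 library; Otx2 lost it without any of 3, Cdh2 without either of 2, and Dnmt3a and Tead2 each without 1. The list had 2 lower genes without LAP2B replicate 1 and 3 without LAP2B replicate 2 or IGG replicate 1.

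Of 17 mesoderm genes, 5 were lower and 0 higher; T, the gene of brachyury, had levels of 1.03, 1.69 and 1.32 against 2.5, 2.60 and 1.98, a difference of -0.78 that lost its call without LAP2B replicate 1. The mesoderm count was 1 without LAP2B replicate 1 or IGG replicate 1, 2 without LAP2B replicate 2 and 3 without IGG replicate 2. Of 17 endoderm genes, 2 were higher and 1 lower. The alpha-fetoprotein gene Afp had 5.38, 5.19 and 6.21 against 2.76, 3.88 and 4.05, a difference of 0.65, and Cubn, the endocytic receptor cubilin, had 0.57, while Gata4 had -0.39 and lost its call without IGG replicate 1. Germline genes had 2 higher and 2 lower of 20, the lower ones including Tex14 with 27.1, 30.3 and 27.6 against 39.6, 37.1 and 39.3. Imprinted genes had 2 higher and 2 lower of 26; Snrpn was higher at 0.60, with 37.0, 33.4 and 31.9 against 20.1, 23.1 and 24.4. Cdkn1c was lower at -0.93 but lost its call without any of 3 libraries, and was -0.54 without LAP2B replicate 2. Lower calls over these lists rose when libraries were divided by their mean gene, to 9 for primed, 7 for mesoderm, 6 for endoderm, 4 for germline and 10 for imprinted genes, so that the endoderm list then held more lower than higher genes. On the median-gene scale, shares of endoderm, germline and imprinted genes lay below the 14.13% higher and 15.02% lower of protein-coding genes.

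Genes of the nuclear envelope itself were also covered. Of 20, 7 were lower and 1 higher, with a median of -0.31 and per-bin levels of 0.947, 0.950 and 0.939 against 1.24, 1.1 and 1.1. Lmna, the gene of lamins A and C, had levels of 8.25, 9.81 and 9.36 in LAP2B against 18.3, 13.1 and 10.2 in IGG, a difference of -0.56 that was -0.34 and not called without IGG replicate 1. Sun1, which links lamins to the cytoskeleton, had 8.95, 10.04 and 10.02 against 13.4, 15.2 and 12.5, a difference of -0.49 that was called without any 1 library. Tmpo, which encodes LAP2B, had 6.92, 7.39 and 6.2 against 8.10, 8.33 and 8.19, a difference of -0.26 (limma adjusted p = 0.155) with no overlap. Syne1, a very long gene of 532 bins for a giant spectrin-repeat protein, was the higher one at 0.32 and lost its call without any of 4 libraries. The lower calls were 2 without IGG replicate 1, 4 without IGG replicate 2 or LAP2B replicate 1 and 13 when libraries were divided by their mean gene.

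TE families were compared as the mean over their copies, in units of the library's median family. Of 1205 families with at least 10 copies, 206 (17.1%) were higher and 126 (10.5%) lower at an adjusted p under 0.05 (limma). Without LAP2B replicate 1 the counts were 118 and 58, and without IGG replicates 1 and 2 they were 148 and 136 higher and 83 and 70 lower. With the median over copies in place of the mean, 52 were higher and 34 lower. Calls in both directions changed with the scale. Dividing each library by its mean family gave a median difference of 0.23, with 135 higher and 1 lower. Dividing by its median gene gave a median of 0.16, with 689 higher and 4 lower. On the spike-in scale the median family was 1.38 log2 units higher in LAP2B, with 1200 higher and 0 lower. Differences below are relative to the median family unless another scale is named.

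Both younger groups of LINE-1 families had median differences above 0. Rodent Lx LINE-1 families were higher in 22 of 23 and lower in 0, with a median of 0.25. Their median levels were 1.34, 1.26 and 1.27 in LAP2B replicates 1, 2 and 3 against 1.02, 1.04 and 1.06 in IGG, with no overlap. Lx3C, with 6688 copies, had 1.37, 1.26 and 1.30 against 1.03, 1.03 and 1.06, a difference of 0.31, and Lx2B, with 7337 copies, had the same difference. Both differences were above 0 on each of these scales, and 71.5% and 70.8% of their copies had a difference above 0.

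Young L1Md families, which hold the LINE-1 copies still able to move, were higher in 20 of 25 and lower in 0, with a median of 0.20 and levels of 1.78, 1.66 and 1.71 against 1.45, 1.5 and 1.48. Taken as the median over copies, 7 L1Md and 13 Lx families were higher. L1MdFanc_II was the highest at 0.26. L1MdGf_I was the lowest at 0.03 (adjusted p = 0.78), with levels of 3.00, 2.79 and 3.10 against 3.02, 2.99 and 2.71, with overlapping libraries. Older L1M and other LINE-1 families were mixed on the median-family scale, with 14 higher and 17 lower of 99, led by L1_Mur2 at 0.29. Their shares were 14.1% and 17.2%, against 17.1% and 10.5% of all families. This list takes in every LINE-1 family outside the Lx and L1Md groups, so that not all its members need be old. L2, CR1 and other old LINEs had 3 higher and 4 lower of 47 (6.38% and 8.51%) on the median-family scale. With libraries divided by their mean family, the older and other LINE-1 families had 10 higher and 0 lower and the old LINEs 2 and 0. Divided by the median gene these were 50 and 0, and 27 and 0. With the median over copies they were 6 and 0, and 1 and 0. Lower calls of the older and other LINE-1 families numbered 5 without LAP2B replicate 1, 7 without LAP2B replicate 3 and 6 without IGG replicate 2 or 3, and the old LINEs had 1 higher and 1 lower without LAP2B replicate 1 or IGG replicate 2.

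SINE families, short elements that crowd gene-rich chromatin, had differences below 0 on the median-family scale. All 15 B1, 5 B2, 8 B4 and ID and 5 MIR families were called lower, with medians of -0.23, -0.24, -0.18 and -0.14, but these medians were 0.03, 0.01, 0.07 and 0.10 with libraries divided by their mean family and -0.02, -0.03, 0.01 and 0.04 by their median gene. On neither of these scales was any of these families called in either direction. B1 levels were 0.840, 0.893 and 0.884 in LAP2B against 1.05, 1.04 and 1.02 in IGG, and B2 levels 0.883, 0.933 and 0.911 against 1.09, 1.07 and 1.06. B2_Mm1a, with 18416 copies, was lowest at -0.31, with 0.896, 0.976 and 0.942 against 1.24, 1.16 and 1.17. PB1D9 had -0.29, B1_Mur4 -0.26, MIR1_Amn -0.25, ID -0.25 and B1_Mm -0.15, of which all but PB1D9 turned positive, by 0.10 at most, when libraries were divided by their mean family. The MIR count of 5 was 0 without LAP2B replicate 1, 1 without LAP2B replicate 2 or IGG replicate 1, 2 without IGG replicate 2 and 3 without IGG replicate 3, and 1 with the median over copies, and MIR1_Amn lost its call without LAP2B replicate 1 or 2. With the median over copies, B1, B2 and B4 and ID families called lower numbered 11, 3 and 3. The difference between LAP2B and IGG in the LINE over SINE ratio does not depend on scale. Over medians of families it was 0.23, with ratios of 0.189, 0.117 and 0.082 in LAP2B and of -0.145, -0.097 and -0.062 in IGG.

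LTR elements, the remains of retroviruses, spread widely. ERVK families other than IAP were higher in 76 of 253 and lower in 6. The higher families numbered 41 without LAP2B replicate 1, 47 without LAP2B replicate 3, 50 without IGG replicate 2, 48 without IGG replicate 3 and 14 with the median over copies. With libraries divided by their mean family 44 were higher and 0 lower, and by their median gene 188 and 0. RLTR13E and RLTR13D6 had the highest differences of families with at least 100 copies, at 0.38 each; RLTR13D6 had levels of 2.14, 1.96 and 1.96 against 1.60, 1.47 and 1.53. MER67D, an ERV1 family of 506 copies, had 1.18, 1.09 and 1.05 against 0.816, 0.825 and 0.861, a difference of 0.37 (SE 0.04, limma adjusted p = 0.00536). IAP elements, the most active endogenous retroviruses of the mouse, had 1 higher and 0 lower of 25. IAPEz-int had 2.24, 2.20 and 2.71 against 2.83, 3.46 and 2.56, a difference of -0.29 (adjusted p = 0.119) with overlapping libraries.

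Of all TE families tested, 17.1% were higher and 10.5% lower. ERVL families had 16 higher and 4 lower of 116 (13.8% and 3.45%). Among those of at least 100 copies, MER76 was highest at 0.22 and MT2B lowest at -0.19, which was 0.06 with libraries divided by their mean family. MaLR elements had 6 higher and 11 lower of 65 (9.23% and 16.9%), with ORR1B1-int at -0.26, ERV1 elements 12 and 10 of 119 (10.1% and 8.40%) and DNA transposons 20 and 35 of 294 (6.80% and 11.9%). These were 1 and 6, 3 and 4, and 9 and 9 without LAP2B replicate 1, and without IGG replicate 2 they were 2 and 8, 3 and 6, and 12 and 11. The lower counts were 0, 0 and 1 with libraries divided by their mean family, where ORR1B1-int was -0.0039 and not called. Divided by the median gene, MaLR elements had 22 higher and 1 lower, ERV1 elements 64 and 2 and DNA transposons 129 and 1. ERVL families had 7 higher without IGG replicate 2 and 10 without IGG replicate 1 or LAP2B replicate 1. Among 7 satellite families, 2 were lower, including ZP3AR, with 0.9, 1.01 and 1.09 against 1.40, 1.30 and 1.26. Leaving out any 1 library other than LAP2B replicate 3 gave 1 lower family, and there were 0 with libraries divided by their mean family, where ZP3AR was not called. Other repeats had 16 higher and 4 lower of 99 (16.2% and 4.04%), the higher share being near that of all families, and 7 and 1 without LAP2B replicate 1.

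FordPrefect, a DNA transposon of 270 copies, had the lowest difference of the named families at -1.49, with levels of 1.97, 2.00 and 2.35 against 10.9, 3.74 and 5.44. A single copy held 85.0% of its IGG signal and 50.2% of its LAP2B signal, and the median over copies gave a difference of 0.11. The family value is thus largely that of 1 copy, and its call was lost without LAP2B replicate 1 or 2.

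**Figure D5:**
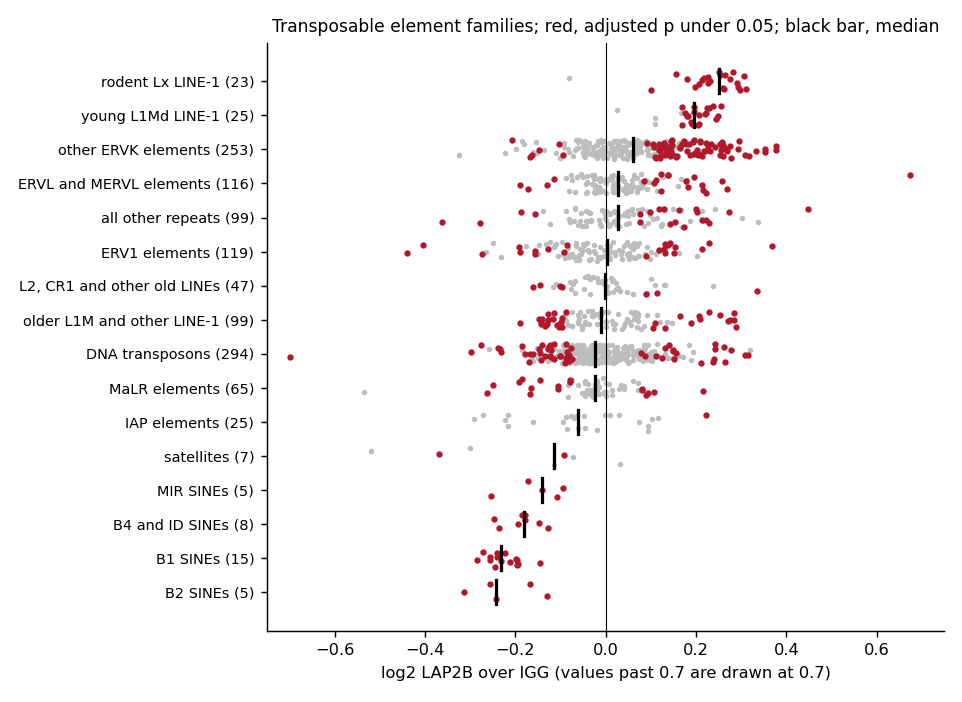
Difference (log2 LAP2B over IGG, relative to the library's median family) of each TE family with at least 10 copies, grouped by list with the number of families in parentheses; red, adjusted p under 0.05; black bars, medians. Rodent Lx LINE-1 families lie to the right (median 0.25) and B2 SINEs to the left (median -0.24, which was 0.01 with libraries divided by their mean family), and 1 family, FordPrefect at -1.49, lies past the axis.

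Naive WT cells of the same line, cultured in 2i and LIF, served as the comparison most alike, with 3 LAP2B and 3 IGG libraries of their own. Fitted in the same way, 16196 genes (23.0%) were higher and 13883 (19.7%) lower in naive cells. Of the 8064 genes with more LAP2B in EpiLCs, 7132 were also higher in naive cells, which is 88.4% of the EpiLC and 44.0% of the naive list, and 1 was lower. Of the 5114 with less, 4056 were lower in naive cells (79.3% and 29.2% of the lists) and 7 were higher. Median differences of these genes were 0.70 in EpiLCs and 0.84 in naive cells for the first group and -0.51 and -0.75 for the second. The EpiLC values chose these genes, and the overlap is a description.

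The 5 ratios within libraries differed between LAP2B and IGG by more in naive cells, with 1.42 against 0.66 for LMNB1-rich over LMNB1-poor genes, ranked in naive cells by their own LMNB1, 0.89 against 0.61 for AT content, 0.42 against 0.29 for chromosome X, 0.39 against 0.30 for LINE over SINE and 0.53 against 0.44 for L1Md over B1. None of these stage differences passed an exact permutation test over 400 assignments of stage labels, with p = 0.06, 0.425, 0.25, 0.38 and 0.51 and adjusted p from 0.3 to 0.51. Gene by gene, the difference between stages passed for 170 genes (0.242%), 70 with more and 100 with less LAP2B over IGG in EpiLCs (limma interaction). That count was 5 to 1117 without any 1 of the 12 libraries, and 1042 with libraries divided by their mean gene. For TE families it was 0, with 100 at an unadjusted p under 0.05 and 1 called when libraries were divided by their mean family.

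Among the 35 gene lists, 4 held a single member each with a stage difference. The member of the nuclear envelope list was Tor1aip1, which encodes the lamina-associated protein LAP1. Its levels in EpiLCs were 5.13, 5.55 and 5.14 in LAP2B against 6.68, 8.53 and 6.39 in IGG, a difference of -0.43, while in naive cells it was 0.49. The stage difference of -0.92 had an adjusted p of 0.0433 (limma) and lost its call without any of 9 of the 12 libraries.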

How the data were processed

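CUT&RUN with antibodies to LAP2, to LMNB1 and a control antibody (IGG) was read in WT EpiLC and WT naive libraries, in 3 replicates each. According to the methods, the authors mapped reads to mm39 with Bowtie2 2.3.5.1, kept properly paired primary alignments with SAMtools 1.10, removed duplicates, mitochondrial reads and contigs, and scaled coverage to yeast spike-in with deepTools. For genes, blacklisted regions had been excluded, and for TEs not. The deposited signal of a gene or TE copy is the authors' spike-in scaled RPKM summed over 1 kb bins and is not divided by length. Gene values came out as whole multiples of 1 read for 100% of values within 0.05 of a step, which gave the reads over genes in each library. This is not the number of reads sequenced. The methods name wider bins for TEs, so that the TE bin width is uncertain.

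Values were scaled within a library to the median of all 78202 genes or of all TE families (mean over copies). Genes in the lowest 10% by mean and 36 families under 10 copies were left out. LAP2B and IGG were compared with limma 3.58.1 (R 4.3.3; trend, two-sided, 3 libraries a group) on log2(level + 0.1), with Benjamini-Hochberg adjustment and a threshold of 0.05, and the stage difference as an interaction over 12 libraries. Per-library ratios were tested by exact permutation. Scripts in Python 3.11.15 used numpy 2.4.6, pandas 2.3.3, scipy 1.17.1 and matplotlib 3.10.9. Coordinates are GENCODE M39 on GRCm39, and 71 genes without a match had none. The code was tested on simulated data.

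Named genes were the 10 highest and 10 lowest differences, at most 1 per 1 Mb, among protein-coding genes of at least 10 bins, without Gm or Rik names, called with no overlap of libraries. Whether called or not, the highest and lowest tested member of each list and any member of a list given by symbols could also be named. Families had at least 100 copies and were the 10 highest and 10 lowest called with no overlap, and the highest and lowest of each list, called or not, while windows were the 5 highest and 5 lowest, and stage differences the 5 highest and 5 lowest. The members and lists were chosen with earlier results of these data known. Alternatives were edgeR 4.0.16 with TMM on the recovered reads, other pseudocounts, filters and scalings, a 12-library fit, a replicate block, and leaving out each library. Counts of the lists without LAP2B replicate 1 and the fit on naive cells alone were added after seeing the data. Same-numbered replicates were checked and were not treated as pairs.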

Additional observations from a re-analysis of the deposited data

Results flagged for a closer look

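The difference of LAP2B over IGG between EpiLCs and naive cells passed the limma interaction test at an adjusted p under 0.05 for 170 genes. That count ranged from 5 to 1117 over the 12 fits that each left out 1 library. It was 5 without EpiLC LAP2B replicate 3 or EpiLC IGG replicate 2 and 1117 without naive LAP2B replicate 3. With libraries divided by their mean gene it was 1042.

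Among the named genes, 5 had a higher difference in EpiLCs. The splicing factor gene Sf1 had a stage difference of 1.37 (SE 0.25, limma adjusted p = 0.0101), from -0.16 in EpiLCs and -1.53 in naive cells. Swi5, a recombination factor, had 1.27, Lactbl1 1.22, Jaml 1.15 and Llgl1, a cell polarity gene, 1.12. Sf1 lost its call without any of 3 of the 12 libraries, Lactbl1, Jaml and Llgl1 each without any of 7, and Swi5 without any of 9.

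In the other direction, Serpinc1, the gene of antithrombin, had -1.33 (SE 0.20, limma adjusted p = 0.00158), from -0.35 in EpiLCs and 0.98 in naive cells. It kept its call without any 1 library, with an adjusted p of 0.0195 at most. The apoptosis inhibitor Xiap had -1.28 and lost its call without either of 2 libraries. Isl1, a homeobox gene, had -1.10, Spaca6 -1.04, Akr1e1 -1.04 and Tor1aip1 -0.92, and they lost their calls without any of 10, 6, 8 and 9 libraries.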

How the results depend on the processing

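Directions hold relative to the median gene or family. The methods state no constant of the spike-in scale for IGG. On that scale 35723 genes and 1200 TE families were higher and 0 lower, and most named members below 0 in the report turned positive. Taco1 at -0.029 and H4c1 at -0.23 stayed below 0 and were not called. Those that turned positive, of which IAPEz-int was not called as reported, had log2 differences of Aqp2 0.23, Nat8f2 0.12, Fahd1 0.23, Dlg4 0.38, Pld6 0.29, Nes 0.36, Cabp7 0.36, Prrg2 0.38, Catsper4 0.39, Or13e8 0.30, Wnt10b 0.55, Hoxb5 0.23, Klf2 0.49, Pou5f1 0.73, Esrrb 1.02, Otx2 0.75, Dnmt3a 0.96, Tead2 0.79, T 0.48, Gata4 0.94, Cdkn1c 0.23, Lmna 0.77, Sun1 0.84, Tor1aip1 0.89, Tex14 0.89, FordPrefect 0.036, ZP3AR 1.04, B2_Mm1a 1.08, PB1D9 1.09, B1_Mur4 1.11, B1_Mm 1.22, MIR1_Amn 1.14, ID 1.12, IAPEz-int 1.19, MT2B 1.19 and ORR1B1-int 1.1. With libraries divided by their mean, 10555 genes and 1 TE family were lower and 135 TE families higher, and B1_Mur4 0.0026, B1_Mm 0.10, MIR1_Amn 0.0065, ID 0.010 and MT2B 0.062 turned positive. For genes, that setting also understates low genes more, as 0.1 was added to smaller levels.

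Without a filter on low genes, 1844 genes were higher and 747 lower. With the filter, a threshold of 1.5-fold in addition kept 1813 of the 5114 lower genes. TE families divided by the median gene gave 689 higher and 4 lower, and the median over copies 52 and 34. Medians by LMNB1 not divided by bins were -0.063, -0.023, -0.11 and 0.063. The stage difference passed for 1042 genes and 1 TE family with mean scaling.

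Leaving out 1 library gave 4659 to 7752 genes higher and 1948 to 4672 lower, 118 to 185 TE families higher and 58 to 104 lower, and 5 to 1117 genes with a stage difference. The per-library differences were 0.56 to 0.73 for LMNB1, 0.48 to 0.71 for AT content, 0.26 to 0.31 for chromosome X, 0.27 to 0.32 for LINE over SINE and 0.39 to 0.50 for L1Md over B1.

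Same-numbered replicates deviated together by r = -0.09, 0.01 and -0.09, and not every library correlated best with its own number, so that they share only a number. With the replicate block, 7042 genes were higher and 3590 lower, 127 TE families higher and 70 lower, and 83 genes differed between stages. Under the block, 12 young L1Md and 44 ERVK families were higher and 0 MIR families lower. The cause of these changes was not tested. Of 50 called genes named, 32 kept direction and call under mean scaling, both other pseudocounts, the block, the 12-library fit and each fit without 1 library, as did 8 of 18 TE families. Divided by the median gene, B1_Mm was 0.038 and MT2B 0.0066, and with the median over copies FordPrefect was 0.11, so that these 3 turned positive. The median gene had 43 to 108 reads per library, so that short genes carry wide counting error.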
